A study of Mus musculus with 24 samples.

Results

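Mediator is the large coactivator that connects transcription factors bound at enhancers to RNA polymerase II at promoters. Its genes were measured here in hindlimb buds of mouse embryos that lack 1 copy of Nipbl, the gene for a factor that loads cohesin onto chromosomes. The genes were the 33 listed subunits of Mediator and its kinase module. Each was read from the probe sets that carry its symbol alone, and where a gene had several the brightest over all arrays was kept. All 33 were found among the 19937 genes measured this way: 7 of the head, 9 of the middle, 1 scaffold gene, 9 of the tail and 7 of the kinase module. Med4 was the only one with several such probe sets, and a probe set that Med20 shares with Usp49 was not used.

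RNA came from both hindlimb buds of single E10.5 embryos, with 12 Nipbl+/- embryos set against 12 wild type (Nipbl+/+) littermates matched for stage, and each embryo had its own Affymetrix Mouse Gene 1.0 ST array. Nipbl+/- embryos carry 1 mutant and 1 normal copy of the gene in every cell, so the model is a constitutive partial loss and not a limb-specific one. Values are log2 intensities, on which a difference of 1 is a doubling of signal, and intensities of different genes are not set against each other. Nipbl itself had log2 intensities of 9.54 to 9.97 (median 9.89) in Nipbl+/- embryos, against 10.32 to 10.72 (median 10.53) in wild type. Its ratio of Nipbl+/- to wild type was 0.630 (adjusted p = 2.42e-09 from limma), and the genotypes did not overlap. The question put to the Mediator genes was whether their transcripts change when Nipbl is reduced.

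Mediator is built from a head that contacts the polymerase, a middle that links head and tail, a tail that many activators bind, and the long Med14 subunit that runs through all of them as a scaffold. A separable kinase module holds the kinase Cdk8 or its paralog Cdk19, cyclin C (Ccnc), Med12 or Med12l, and Med13 or Med13l. When bound it keeps Mediator from engaging the polymerase, and its kinases phosphorylate transcription factors. Mediator and the Nipbl-loaded cohesin ring are found together at active enhancers and promoters, which is why the complex is of interest in a Nipbl mutant.

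No Mediator gene passed an adjusted p under 0.05 in either direction. Over all 19937 genes, 57 (0.286%) were called higher and 105 (0.527%) lower in Nipbl+/- embryos by limma with Benjamini-Hochberg adjustment, against 0 and 0 of the 33 Mediator genes. With single embryos left out these counts over all genes ran from 36 (without wild type replicate 4 or 5) to 72 higher and from 74 to 149 lower. At an unadjusted p under 0.05, 4 Mediator genes were higher (Med19, Med12l, Med14 and Med21) and 0 lower, where 4.13% of all genes were higher and 5.14% lower. These unadjusted counts moved with the processing, and Med19 and Med12l were among the higher genes in all 10 alternatives. With embryo sex as a covariate 2 were higher and 1 lower (Med12), and with array weights 6 were higher and 2 lower (Med11 and Med29). Without wild type replicate 3, 3 were higher and 4 lower (Med11, Med17, Med29 and Med31). In 11 genes of the array (0.0552%) the genotypes did not overlap at all, and 0 of these were Mediator genes. In bulk RNA, a difference in the share of cells that make a transcript and a difference in RNA per cell cannot be told apart.

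In array signal, the changes that the interval of each single gene leaves room for were small. These intervals come from the fit without covariates and do not bound the change in RNA. For Shh and several Hox genes the study's Q-RT-PCR gave larger changes than its arrays did. Ratios of Nipbl+/- to wild type ran from 0.925 for Med31 to 1.11 for Med12l. The 95% intervals of all 33 genes lay within a 1.2-fold change either way, and those of 18 genes lay within 1.1-fold. The lowest bound of any gene was a ratio of 0.855 and the highest 1.18. For 28 of the 33 genes the interval lay above a decrease of 1.1-fold, set beside the ratio of 0.630 that Nipbl itself showed. The log2 difference was positive for 20 genes and negative for 13, with a median of 0.021, while over all genes 46.5% were positive, the median was -0.0049 and the quartiles were -0.045 and 0.034. The Mediator median turned to -0.0012 without wild type replicate 3.

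**Figure D1:**
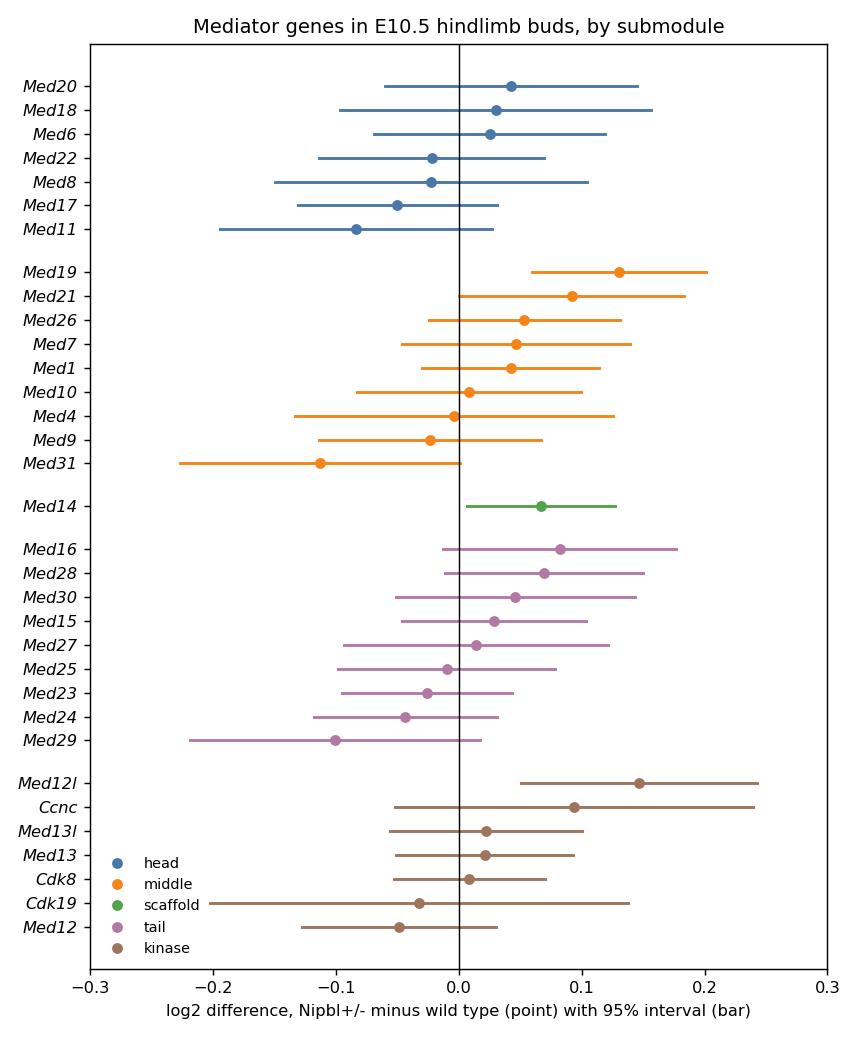
Log2 difference of each of the 33 Mediator genes, Nipbl+/- minus wild type, on the horizontal axis, with points for estimates and bars for 95% intervals (12 embryos per genotype), grouped by submodule and coloured by it. The intervals of Med19, Med21, Med14 and Med12l lie to the right of 0, none lies wholly to the left, and all lie between ratios of 0.855 and 1.18.

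Promoter sequence is shown for Med19, which had the smallest p of the complex, and for Med12l and Med12, the kinase-module paralogs that differed most from each other between genotypes. Each line is the gene's own strand from 250 bases before to 50 after the annotated start, 300 bases in RefSeq's GRCm38.p6. The windows are at chr2:84678152-84678451 (plus strand) for Med19, chr3:59006728-59007027 (plus strand) for Med12l and chrX:101273841-101274140 (plus strand) for Med12. Capitals mark 4 short motifs on either strand: the ETS core CCGGAA, the GC box GGGCGG, the CCAAT box CCAAT and the TATA box TATAAA, none of which contains another.
Med19: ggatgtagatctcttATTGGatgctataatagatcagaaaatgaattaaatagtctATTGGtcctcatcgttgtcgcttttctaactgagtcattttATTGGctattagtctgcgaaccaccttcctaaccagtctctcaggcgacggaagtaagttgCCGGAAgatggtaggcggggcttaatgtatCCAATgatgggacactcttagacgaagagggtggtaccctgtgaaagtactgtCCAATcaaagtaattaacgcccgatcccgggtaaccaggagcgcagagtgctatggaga
Med12l: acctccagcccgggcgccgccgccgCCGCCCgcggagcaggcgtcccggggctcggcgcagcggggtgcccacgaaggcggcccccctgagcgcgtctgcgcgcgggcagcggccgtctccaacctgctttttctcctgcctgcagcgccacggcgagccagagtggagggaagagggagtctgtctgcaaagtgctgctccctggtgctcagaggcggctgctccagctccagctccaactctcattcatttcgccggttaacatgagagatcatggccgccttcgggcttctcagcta
Med12: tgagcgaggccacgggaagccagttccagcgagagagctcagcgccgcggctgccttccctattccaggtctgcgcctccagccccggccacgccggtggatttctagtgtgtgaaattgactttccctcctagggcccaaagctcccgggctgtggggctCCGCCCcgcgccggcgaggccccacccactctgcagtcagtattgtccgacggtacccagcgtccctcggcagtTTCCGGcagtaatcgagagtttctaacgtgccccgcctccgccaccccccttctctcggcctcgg
Med19 held 1 ETS match and 5 CCAAT matches with no GC box. Med12 held 1 ETS match and 1 GC box, and Med12l a single GC box with no ETS match. These windows had 12 CpG in Med19, 30 in Med12l and 27 in Med12. Promoters were given for 28 of the 33 genes. The ETS letters occurred in 14 of these 28 (50%), against 22.0% of the 15613 measured genes with a promoter, and the GC box in 19 (67.9%, against 52.9%). CCAAT occurred in 11 (39.3%, against 41.7%) and TATAAA in 3 (10.7%, against 13.6%). The median number of CpG was 22 in Mediator promoters and 16 over all, with a median G and C content of 59.5% and 58.3%. These are counts of letters in a window and were not tested.

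In the head, 7 of 7 genes missed even the unadjusted threshold, and the median log2 difference was -0.022 with 3 genes positive. Med20, which pairs with Med18 in the movable jaw of the head, had the highest difference. Its log2 intensity was 8.87 to 9.20 (median 9.07) in Nipbl+/- embryos and 8.69 to 9.15 (median 9.06) in wild type, a ratio of 1.03 (adjusted p = 0.902). Med11, which forms a dimer with Med22 at the base of the head, had the lowest. It ran from 9.25 to 9.65 (median 9.41) in Nipbl+/- embryos and from 9.14 to 9.68 (median 9.52) in wild type, a ratio of 0.944 (log2 difference -0.083, SE 0.054, adjusted p = 0.708). Every Nipbl+/- value of Med11 lay inside the wild type range. Med17, the central subunit of the head, had a ratio of 0.966 (adjusted p = 0.797). Med6, Med8, Med18 and Med22 had log2 differences of 0.025, -0.023, 0.030 and -0.022.

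The middle held both the smallest p of the complex and its lowest ratio. Med19, a middle subunit that in Drosophila binds Hox proteins directly, had log2 intensities of 10.61 to 10.83 (median 10.74) in Nipbl+/- embryos, against 10.45 to 10.69 (median 10.64) in wild type. Of the 12 Nipbl+/- embryos, 11 lay above the highest wild type embryo, and the only overlap came from Nipbl+/- replicate 9, at 10.61. The log2 difference was 0.13 (SE 0.035, 95% interval 0.059 to 0.20), a ratio of 1.09, with an unadjusted p = 8.0e-04 and an adjusted p = 0.0770. Without replicate 9 Med19 was called (adjusted p = 0.0372), and it was called in 6 of 10 other ways of processing, with adjusted p from 0.00398 to 0.228. The study lists Med19, Med14 and Med12l as modestly higher on these same embryos, by its own test and false discovery rates. At thresholds of its own it called many more genes over the array than limma did here. For Med19, Med14 and Med12l its listed false discovery rates were themselves under 0.05, the level used here. None of these Mediator genes passed in the limma fit reported here, so the calls differ, and the reason was not tested. Their shared direction is not independent evidence, because the embryos are the same.

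Med21, which with Med7 forms the hinge of the middle, ran from 8.97 to 9.47 (median 9.15) in Nipbl+/- embryos and from 8.95 to 9.23 (median 9.05) in wild type. Its ratio was 1.07 (log2 difference 0.092, SE 0.045, unadjusted p = 0.0492, adjusted p = 0.537), and only 2 Nipbl+/- embryos lay above the wild type range. Med31, a small and highly conserved subunit of the middle, had a negative difference. Its values were 9.11 to 9.70 (median 9.40) in Nipbl+/- embryos and 9.33 to 9.72 (median 9.49) in wild type, a ratio of 0.925 (log2 difference -0.11, SE 0.056, unadjusted p = 0.0526, adjusted p = 0.551). Of the 12 Nipbl+/- embryos, 11 had less Med31 signal than the wild type mean, and 3 lay below the whole wild type range. The other 6 middle genes had log2 differences from -0.023 (Med9) to 0.053 (Med26, which brings in elongation factors), with Med1, the subunit that nuclear receptors bind, at 0.042, Med7 at 0.047, Med10 at 0.0083 and Med4 at -0.0038. The median of the middle was 0.042.

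Med14, the scaffold, had log2 intensities of 11.18 to 11.36 (median 11.23) in Nipbl+/- embryos and 11.10 to 11.25 (median 11.18) in wild type. All 12 Nipbl+/- embryos lay above the wild type mean, but only 4 lay above the wild type range. The ratio was 1.05 (log2 difference 0.067, SE 0.029, unadjusted p = 0.0304, adjusted p = 0.449). Med14 lies on the X chromosome, and the adjusted p was 0.721 with embryo sex as a covariate.

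**Figure D2:**
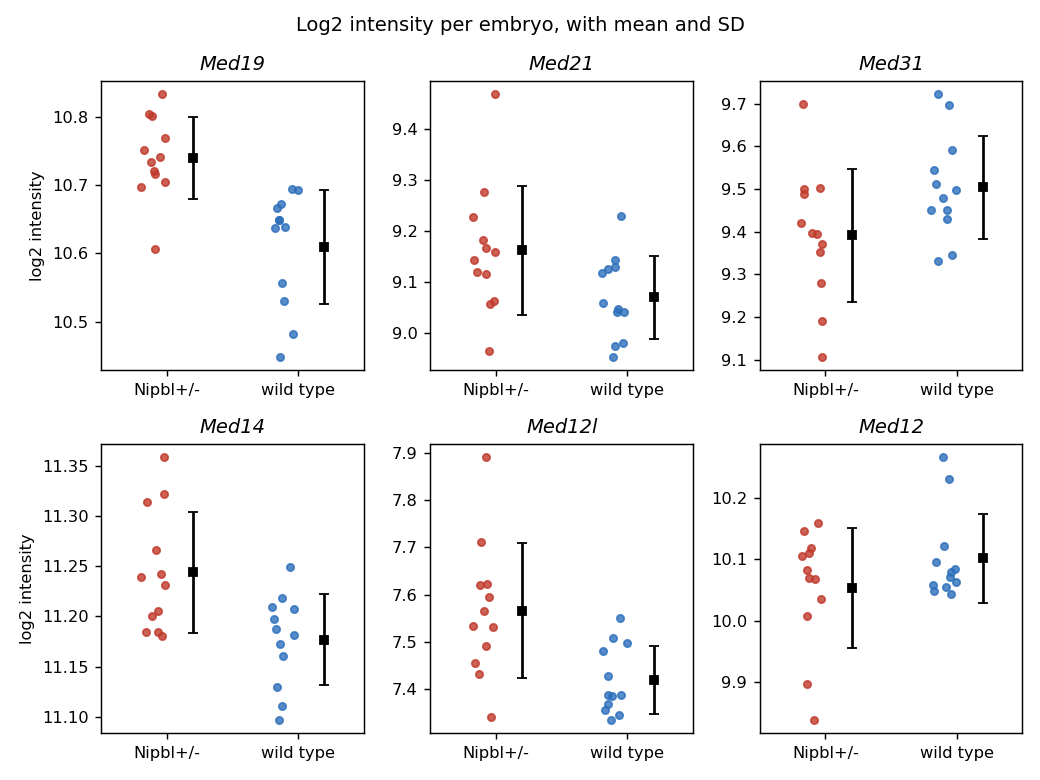
Log2 intensity on the vertical axis for 6 Mediator genes in single embryos, Nipbl+/- in red on the left of each panel and wild type in blue on the right, with black squares for the mean and bars for the SD (n = 12 each). In Med19, 11 Nipbl+/- embryos lie above all wild type embryos; in the other 5 genes the genotypes overlap more widely.

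In the tail, 0 of 9 genes passed the unadjusted threshold, 5 were positive and the median log2 difference was 0.014. Med16 had the highest difference. Its values were 10.44 to 10.91 (median 10.83) in Nipbl+/- embryos and 10.54 to 10.83 (median 10.72) in wild type, a ratio of 1.06 (log2 difference 0.082, SE 0.046, adjusted p = 0.645). The 6 Nipbl+/- embryos above the wild type range were replicates 1 to 6. Replicates 7 to 12 all lay lower than these, and 1 of them, replicate 9, lay below the wild type range. Med29 had the lowest difference, with 10.06 to 10.59 (median 10.45) in Nipbl+/- embryos and 10.23 to 10.64 (median 10.51) in wild type, a ratio of 0.933 (log2 difference -0.10, SE 0.058, adjusted p = 0.647).

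The tail subunits that activators are known to bind had small differences, and none passed the test. Med15, bound by Smad and sterol-response factors, had a log2 difference of 0.029, Med23, bound by Elk1, had -0.025, and Med25, the target of the viral activator VP16, had -0.0098. Med24, a neighbour of Med16 and Med23 in the tail, was at -0.043, and Med27, Med28 and Med30 were at 0.014, 0.070 and 0.046. When Med27 to Med30 were counted with the head, as in the older scheme, the head median became 0.014 and the tail median -0.0098, so the sign of both small medians depends on where these 4 genes are placed.

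In the kinase module, 1 of 7 genes passed the unadjusted threshold, 5 were positive and the median log2 difference was 0.021. Med12l, the less studied paralog of Med12, had the highest ratio of the complex. Its log2 intensity was 7.34 to 7.89 (median 7.55) in Nipbl+/- embryos and 7.34 to 7.55 (median 7.39) in wild type. Of 12 Nipbl+/- embryos 11 lay above the wild type mean and 6 above the wild type range. Those 6 were replicates 2 to 6, at 7.60 to 7.89 with replicate 2 the highest, and replicate 11, at 7.57. The part of the replicate number in this difference was not tested. The ratio was 1.11 (log2 difference 0.15, SE 0.047, unadjusted p = 0.0041, adjusted p = 0.192, and 0.0714 to 0.529 over the 10 other ways of processing).

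Med12, which activates the kinase and is encoded on the X chromosome, did not share that direction. It ran from 9.84 to 10.16 (median 10.08) in Nipbl+/- embryos and from 10.04 to 10.27 (median 10.08) in wild type, a ratio of 0.967 (log2 difference -0.049, SE 0.038, adjusted p = 0.796). None of the Nipbl+/- embryos lay above the wild type range and 4 lay below it. With embryo sex as a covariate the log2 difference of Med12 was -0.092 (unadjusted p = 0.0241, adjusted p = 0.431).

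The kinases differed between genotypes by less than their standard errors. Cdk8 had 11.30 to 11.51 (median 11.45) in Nipbl+/- embryos and 11.32 to 11.50 (median 11.44) in wild type, a ratio of 1.01 (SE 0.030 on the log2 scale, adjusted p = 0.983). Cdk19 had 8.88 to 9.66 (median 9.27) in Nipbl+/- embryos and 9.02 to 9.60 (median 9.33) in wild type, a ratio of 0.978 (SE 0.083, adjusted p = 0.974), and it had the highest SD of the complex, 0.25 in Nipbl+/- and 0.18 in wild type embryos. Ccnc, the cyclin that both kinases need, had 8.69 to 9.39 (median 9.30) in Nipbl+/- embryos and 8.83 to 9.38 (median 9.16) in wild type. Its ratio was 1.07 (log2 difference 0.094, SE 0.071, adjusted p = 0.778).

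Med13 and Med13l, which tether the kinase module to the rest of Mediator, also differed by less than their standard errors. Med13 had 11.33 to 11.59 (median 11.42) in Nipbl+/- embryos and 11.28 to 11.55 (median 11.41) in wild type, a ratio of 1.01 (SE 0.035, adjusted p = 0.952). Med13l had 10.06 to 10.36 (median 10.25) in Nipbl+/- embryos and 10.07 to 10.38 (median 10.19) in wild type, a ratio of 1.02 (SE 0.038, adjusted p = 0.955).

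Only 1 member of each pair of paralogs sits in a given kinase module, so each pair was also compared within an array. There a shift common to the whole array cancels, but a difference in the spread of values between arrays does not. Med12l minus Med12 averaged -2.49 ± 0.14 in Nipbl+/- and -2.68 ± 0.096 in wild type embryos (SD, n = 12 each), a difference of 0.20 (SE 0.049). All 12 Nipbl+/- embryos lay above the wild type mean and 8 above the wild type range (2-sided permutation p = 3.9e-04, adjusted p = 0.00117 over 3 pairs). With the spread of each array (its interquartile range) as a covariate the difference was 0.20 (adjusted permutation p = 8.7e-04). The balance of Med12l against Med12 signal was thus higher on average in Nipbl+/- embryos, but the genotypes overlapped. It ran from -2.65 to -2.14 in Nipbl+/- and from -2.88 to -2.54 in wild type embryos. Neither paralog was called by itself, and the direction of Med12l in these embryos was known when the pairs were chosen.

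The other pairs did not pass the test. Med13l minus Med13 averaged -1.20 ± 0.083 in Nipbl+/- and -1.21 ± 0.047 in wild type embryos, a difference of 0.00099 (SE 0.027, adjusted permutation p = 0.971). Cdk19 minus Cdk8 averaged -2.14 ± 0.27 in Nipbl+/- and -2.10 ± 0.17 in wild type embryos, a difference of -0.041 (SE 0.091, adjusted permutation p = 0.971).

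Embryo sex was not balanced between the genotypes. Xist minus the mean of 4 Y-linked genes averaged -0.83 ± 5.04 in Nipbl+/- and 3.88 ± 5.38 in wild type embryos (SD, n = 12 each, permutation p = 0.0395). With this measure as a covariate the difference of Med12l minus Med12 was 0.20 (adjusted permutation p = 0.00324). In the limma fit with it the log2 difference of Med12l fell from 0.15 to 0.11 (unadjusted p = 0.0421, adjusted p = 0.529). That of X-linked Med12 moved from -0.049 to -0.092. Med19 kept a log2 difference of 0.12 in the same fit (unadjusted p = 0.0058, adjusted p = 0.228).

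**Figure D3:**
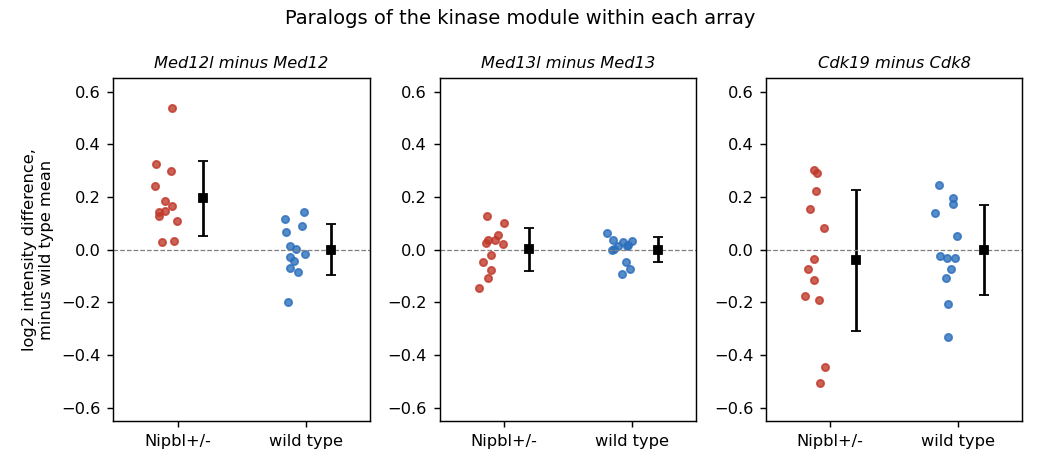
Within-array log2 difference of 3 pairs of kinase-module paralogs on the vertical axis, centred on the wild type mean (dashed line), for single Nipbl+/- (red, left) and wild type (blue, right) embryos, with black squares for the mean and bars for the SD (n = 12 each). Med12l minus Med12 lies above the line in all 12 Nipbl+/- embryos, and the other pairs straddle it.

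Nipbl varied among embryos of one genotype, so each Mediator gene was also set against Nipbl over the 12 embryos of each genotype, 66 relations in all. Within Nipbl+/- embryos Pearson's r was positive for 22 of 33 genes with a median of 0.344, and within wild type it was positive for 29 of 33 with a median of 0.559. After adjustment over the 66 relations 1 passed in each genotype by r and 0 by Spearman's rho. In Nipbl+/- embryos this was Med7 (r = 0.870, adjusted permutation p = 0.0211, rho = 0.727, adjusted p = 0.126, r = 0.797 without the 2 embryos farthest in Nipbl). In wild type it was Med11 (r = 0.790, adjusted permutation p = 0.0399, rho = 0.776, adjusted p = 0.126, r = 0.657 without the 2 farthest embryos), and with array medians set to 0 its adjusted p was 0.0931.

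The spread of values on an array moved with Nipbl in both genotypes. Nipbl followed the interquartile range of the array within Nipbl+/- embryos (r = 0.670, permutation p = 0.0134, rho = 0.741, p = 0.00808, r = 0.694 without the 2 farthest arrays) and within wild type (r = 0.807, p = 0.00133, rho = 0.790, p = 0.00356, r = 0.796 without the 2 farthest). With that range regressed out of both genes, the median r of the Mediator genes was -0.310 in Nipbl+/- and -0.090 in wild type embryos, with 15 and 14 of 33 positive, and r was 0.749 for Med7 in Nipbl+/- and 0.230 for Med11 in wild type embryos. In Nipbl+/- embryos more relations then passed after adjustment, 2 by r and 4 by rho, most of them negative. Both that passed by r, Med22 of the head (r = -0.916, rho = -0.930, r = -0.902 without the 2 farthest embryos) and Med27 of the tail (r = -0.863, rho = -0.860, r = -0.826), also passed by rho, as did Med7 (rho = 0.867) and Med26 (rho = -0.804). In wild type embryos 0 passed by either. The permutations take no account of the range having been fitted first, so these p-values are somewhat too small, and the sign and number of the relations depend on whether the range is removed. The range itself averaged 3.55 ± 0.16 in Nipbl+/- and 3.53 ± 0.14 in wild type embryos (SD, n = 12 each, permutation p = 0.826).

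**Figure D4:**
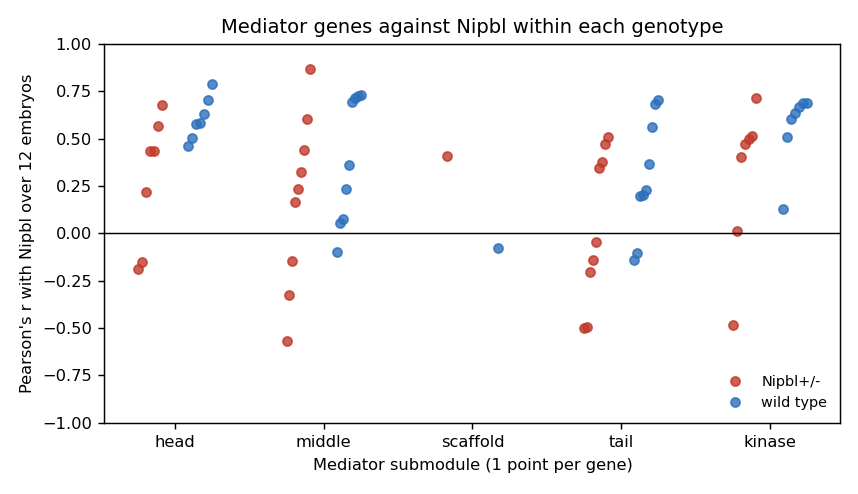
Pearson's r with Nipbl over 12 embryos on the vertical axis, 1 point per Mediator gene, by submodule, for Nipbl+/- (red, left) and wild type (blue, right) embryos, with points sorted within each column. Most points lie above 0 (22 of 33 in Nipbl+/-, 29 of 33 in wild type); the array interquartile range is not removed here.

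The SD over embryos ran from 0.045 to 0.25 over the genes and genotypes, its median was 0.104 in both genotypes, and it was higher in Nipbl+/- embryos for 16 of 33 genes.

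The machinery that Mediator works with gave no called gene. Of 13 RNA polymerase II subunits 7 were positive, the median log2 difference was 0.016, and Polr2f, a subunit shared by all 3 polymerases, had the smallest p (ratio 1.07, adjusted p = 0.512). Of 30 measured general transcription factors, which place the polymerase at the start site, 13 were positive with a median of -0.0068, and Tbp, the TATA-binding protein, had the smallest p (ratio 1.05, adjusted p = 0.576). Among 18 pausing and elongation factors 8 were positive with a median of -0.0048, and Mllt3 of the super elongation complex had a ratio of 0.942 (adjusted p = 0.588). Among 9 enhancer coactivators 5 were positive with a median of 0.015, and Ncoa2, a nuclear-receptor coactivator, had a ratio of 1.05 (adjusted p = 0.579). The Mediator median of 0.021 stood a little above these medians, and no score over a list was tested.

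Markers of the tissue and of other cell types were read as well. They do not decide the tissue, because intensities of different genes are not set against each other. Hindlimb mesenchyme genes (Pitx1, Tbx4, Isl1, Prrx1, Prrx2 and Hoxc10) had a mean log2 intensity of 10.90 to 11.18 in Nipbl+/- and 10.94 to 11.15 in wild type embryos, with 0 of 6 called, and the forelimb gene Tbx5 was at 5.69 ± 0.29 in Nipbl+/- and 5.92 ± 0.46 in wild type embryos. Markers of 3 other cell types were all of one sign. Of 4 measured Schwann cell precursor and nerve genes all were positive and Erbb3 was called (ratio 1.19, adjusted p = 0.0499), with list means of 7.11 to 7.45 in Nipbl+/- and 6.93 to 7.29 in wild type embryos. Of 6 macrophage genes all were negative, 0 were called and 2 had an unadjusted p under 0.05, with list means of 6.47 to 6.75 in Nipbl+/- and 6.51 to 6.80 in wild type embryos. All 5 muscle precursor genes were positive with 0 called, Pax3 having the smallest p (log2 difference 0.14, unadjusted p = 0.0254, adjusted p = 0.420), and list means were 7.70 to 8.16 in Nipbl+/- and 7.66 to 8.11 in wild type embryos. Of 7 ectoderm genes 5 were positive and 0 called. Epcam had a ratio of 1.11 (unadjusted p = 0.00809, adjusted p = 0.254) with 7 Nipbl+/- embryos above the wild type range. Cdh1 went the other way, with a ratio of 0.961 (limma adjusted p = 0.689), 5 Nipbl+/- embryos below the wild type range and 2 above it. The median log2 difference of the ectoderm list was 0.024, and list means were 9.14 to 9.51 in Nipbl+/- and 9.12 to 9.32 in wild type embryos. Among endothelium and erythroid genes 0 were called and 0 had an unadjusted p under 0.05. The part of these cells in the Mediator values was not tested.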

How the data were processed

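RNA from hindlimb buds of 12 Nipbl+/- and 12 wild type embryos was hybridised to single arrays. The authors used GenePattern's Expression File Creator, and RMA is named in the submitters' processing notes (version not given in the sources used here). The deposited values are thus log2 intensities per probe set after background correction and normalization between arrays. Such normalization can hide a change shared by most genes. Array medians over probe sets were 7.24 to 7.39, and 0 arrays were identical. Precision is limited by the number of arrays.

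Of 28159 probe sets, 21640 had 1 gene symbol, 1321 several and 5198 none; 21553 of the first matched RefSeq genes by Entrez ID. One probe set per gene, the brightest, left 19937 genes. Groups and replicate numbers came from the sample labels, which do not say whether litters were shared. A limma fit (version 3.58.1, R 4.3.3) gave Nipbl+/- minus wild type for each gene; p-values were adjusted by Benjamini-Hochberg across the whole table, and an adjusted p below 0.05 was taken as a call. Paralog pairs and relations to Nipbl were tested with 100000 permutations (Python 3.11.15, SciPy 1.17.1), and a covariate was allowed for by permuting residuals of the fit without genotype. Figures used matplotlib 3.10.9. The scripts' statistics were tested on simulated data.

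The Mediator genes and all lists were chosen with earlier results of these data known. The range and median over embryos are given for genes at an unadjusted p under 0.05, for the kinase module and for the highest and lowest gene of each submodule. Of each partner list, called genes and the smallest p are named. Alternatives covered the probe set, dim genes, the variance model, a linear scale, array weights, array medians and interquartile range, replicate number, embryo sex, the first residual component, the threshold and each embryo left out. Covariates and left-out embryos for the paralog pairs, and removal of the interquartile range from the relations to Nipbl, were chosen after seeing the data.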

Additional observations from a re-analysis of the deposited data

How the results depend on the processing

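The count of Mediator genes called lower stayed at 0 under all alternatives run. The count called higher was 0 in the reported analysis. It was 1 at an adjusted p under 0.10, and 1 with trended and robust variance, array weights, an ordinary test on the linear scale, array medians set to 0, the array interquartile range as a covariate or the first residual component as a covariate. That gene was Med19 each time. At an adjusted p under 0.25 the count was 2 (Med19 and Med12l). Leaving out 1 embryo at a time gave 0 to 1, with the 1 only without Nipbl+/- replicate 9. The number of relations to Nipbl that passed by r, 1 in each genotype, was 0 within wild type with array medians set to 0, and 2 within Nipbl+/- and 0 within wild type with the array interquartile range regressed out. Over all genes, 185 were called higher and 302 lower with the interquartile range, 222 and 293 with the first residual component, 101 and 180 with array weights, and 30 and 95 with embryo sex as a covariate, against 57 and 105. The cause was not tested. Same-numbered embryos of the 2 genotypes correlated at -0.355 to 0.282 and 1 of 12 Nipbl+/- embryos correlated best with its own number. No pairing by number was thus seen, but this cannot show whether litters or array runs were shared. In wild type embryos, replicates 1 to 6 all lay below replicates 7 to 12 in Med4, Med8, Med10, Med18 and Med30. For Med8 these were 9.11 to 9.28 and 9.37 to 9.62. Nipbl+/- embryos did not split this way in these genes. In Med16 and Med25 they split the other way, with replicates 1 to 6 all above replicates 7 to 12. For Med16 in Nipbl+/- embryos these were 10.85 to 10.91 and 10.44 to 10.80. Wild type embryos did not split by number in Med16 or Med25. What the numbers stand for, and their part in the genotype differences, was not tested. With the replicate block 0 Mediator genes were called higher (Med19 adjusted p = 0.173), 2 rather than 4 reached the unadjusted threshold as higher (Med19 and Med12l), 48 genes were called higher and 121 lower over all genes, and Med12l minus Med12 had an adjusted permutation p of 0.00146. The difference of Med12l minus Med12 was 0.16 to 0.21 when 1 embryo was left out.

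Values are relative to the bulk of genes on each array, and a change common to all of them would not be seen. Med12 and Med14 are X-linked, and litter and dissection day were not given in the labels.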
